A study of Mus musculus with 8 samples.

Results

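The IL-1 family receptors examined here are 8 genes chosen by symbol, *Il1r1*, *Il1r2*, *Il1rap*, *Il1rn*, *Il1rl1*, *Il18r1*, *Il18rap* and *Il1rl2*, out of 23284 genes in the deposited tables. The rule used no measured value. All 8 were found in every library, and 7 passed the filter on low values that the tests used, a mean of at least 1 FPKM over the 8 libraries. *Il1rn* did not. FPKM counts the fragments of a gene relative to its exon length and to the depth of sequencing, so that levels of different genes can be set side by side.

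RNA was sequenced from CD4 T cells of DO11.10 Tg mice, which carry a transgenic TCR for an OVA peptide, in 4 groups with 2 libraries each. The naive group consisted of sorted splenic CD44low CD62Lhi CD4+ T cells. The effector groups came from such cells kept for 6 days in culture with OVA peptide and T cell-depleted splenocytes that had been irradiated. For Th1, 100 U/ml IL-12 and 30 U/ml IL-2 were combined with 1 µg/ml of an antibody against IL-4. For Th2, 100 U/ml IL-4 and 30 U/ml IL-2 were combined with 10 µg/ml of an antibody against IFNγ. For Th17, 10 ng/ml each of IL-6, IL-1β and IL-23 were combined with 10 µg/ml of both antibodies, so that a ligand of these receptors was added to the Th17 cultures and not to the others. The labels do not say whether the libraries of a group came from separate mice or cultures, and the p-values measure only the spread between these libraries.

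Receptors of this family signal as pairs. A ligand-binding chain (*Il1r1* for IL-1, *Il1rl1* or ST2 for IL-33, *Il18r1* for IL-18, *Il1rl2* for IL-36) recruits an accessory chain, which is *Il1rap* for IL-1, IL-33 and IL-36 and *Il18rap* for IL-18, and the pair engages the adaptor MyD88, IRAK kinases and TRAF6 to activate NF-κB. The system is held in check by *Il1r2*, a decoy that binds IL-1 but lacks the signaling domain, and by *Il1rn*, which encodes the IL-1 receptor antagonist, a secreted ligand and not a receptor. In helper T cells IL-18 is known for its action on Th1 cells, IL-33 on Th2 cells and IL-1 on Th17 cells.

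The implied number of fragments, estimated from the confidence intervals in the files, was 14463466 to 21058286 per library, and 9986 to 11098 genes reached 1 FPKM. The labelled identities were checked against lineage genes. *Tbx21* and *Ifng* were highest in both Th1 libraries, *Gata3*, *Il4*, *Il5* and *Il13* in both Th2 libraries, and *Il17a*, *Il17f* and *Il23r* in both Th17 libraries. The 5 T cell markers found in the files (*Cd3e*, *Cd3d*, *Cd3g*, *Cd4*, *Lck*) summed to 1993 to 2030 FPKM in naive cells, 1473 to 1642 in Th1, 1094 to 1255 in Th17 and 1228 to 1242 in Th2. In bulk RNA, fewer cells that express a gene and less RNA per cell cannot be told apart.

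Of the 8 genes, 6 lay side by side on the plus strand of chromosome 1 of mm10. From the intervals in the files, their order was *Il1r2* (chr1:40084768-40125226), *Il1r1* (chr1:40225080-40316177), *Il1rl2* (chr1:40324627-40365471), *Il1rl1* (chr1:40439649-40465414), *Il18r1* (chr1:40465552-40500854) and *Il18rap* (chr1:40515362-40549297). The cluster spanned 465 kb. Only 137 bases separated the end of *Il1rl1* from the start of *Il18r1*, while 14.5 kb separated *Il18r1* from *Il18rap*. *Il1rap* lay on chromosome 16 (chr16:26581705-26725147) and *Il1rn* on chromosome 2 (chr2:24336860-24351491).

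Promoters are shown for the 5 clustered genes that encode receptor chains for IL-1, IL-33 and IL-18, the cytokines tied to single subsets above. For genes with several starts, the window shown is that of the start at or nearest to the interval in the files for *Il1r1* and *Il1rl1*, and that of the transcripts with the full 537-residue product in GENCODE M21 for *Il18r1*. For *Il1r2* the only window available was that of a start at chr1:40086093, inside the interval in the files, which begins at 40084768. The *Il1r2* transcript with a 410-residue product in GENCODE M21 starts upstream, at 40084698, and the window does not cover that start. Each run is the 300 bases from 250 before to 50 after a transcription start of RefSeq on GRCm38.p6, plus strand, 5′ to 3′. Capitals mark matches, on either strand, to 4 motifs. The GATA motif was searched as AGATAA and the AP-1 motif as TGANTCA. The STAT motif was TTCNNNGAA and the T-box motif was AGGTGTGA.
Il1r2 (chr1:40085843-40086142): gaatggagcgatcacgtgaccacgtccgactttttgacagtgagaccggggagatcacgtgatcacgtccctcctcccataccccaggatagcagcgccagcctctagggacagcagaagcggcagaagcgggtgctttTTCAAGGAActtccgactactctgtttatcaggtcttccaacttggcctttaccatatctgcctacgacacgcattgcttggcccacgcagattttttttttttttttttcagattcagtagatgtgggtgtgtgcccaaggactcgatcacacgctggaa
Il1r1 (chr1:40224830-40225129): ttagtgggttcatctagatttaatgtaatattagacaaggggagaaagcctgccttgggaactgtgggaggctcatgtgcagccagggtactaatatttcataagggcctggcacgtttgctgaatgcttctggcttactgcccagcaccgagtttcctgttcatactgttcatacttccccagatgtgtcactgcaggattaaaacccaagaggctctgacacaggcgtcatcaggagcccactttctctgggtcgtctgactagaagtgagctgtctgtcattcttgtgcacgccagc
Il1rl1 (chr1:40439379-40439678): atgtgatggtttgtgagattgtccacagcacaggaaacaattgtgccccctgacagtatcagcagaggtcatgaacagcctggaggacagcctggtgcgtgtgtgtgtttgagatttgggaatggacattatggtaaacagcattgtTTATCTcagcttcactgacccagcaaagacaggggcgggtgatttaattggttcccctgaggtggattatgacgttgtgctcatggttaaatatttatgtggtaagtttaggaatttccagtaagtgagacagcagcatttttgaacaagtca
Il18r1 (chr1:40465756-40466055): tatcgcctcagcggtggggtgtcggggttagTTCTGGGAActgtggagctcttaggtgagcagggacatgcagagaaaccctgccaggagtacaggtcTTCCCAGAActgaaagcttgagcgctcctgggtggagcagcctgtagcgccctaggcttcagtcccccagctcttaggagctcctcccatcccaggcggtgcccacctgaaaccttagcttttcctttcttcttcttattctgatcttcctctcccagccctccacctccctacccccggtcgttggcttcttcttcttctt
Il18rap (chr1:40515112-40515411): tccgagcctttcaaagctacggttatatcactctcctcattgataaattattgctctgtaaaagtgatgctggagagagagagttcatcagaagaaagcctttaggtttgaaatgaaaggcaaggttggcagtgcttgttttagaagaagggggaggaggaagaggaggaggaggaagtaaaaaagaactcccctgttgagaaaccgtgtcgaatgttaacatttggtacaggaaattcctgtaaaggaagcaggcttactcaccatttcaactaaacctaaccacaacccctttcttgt

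The RefSeq table held 14 such windows for the 8 genes, of which 5 held a match. In the *Il18r1* window shown, the STAT motif stood at 2 places, from -219 to -211 and from -152 to -144 relative to the start, and in the *Il1r2* window at 1 place, from -111 to -103. The other 2 *Il18r1* windows, including that of the start of the interval in the files, and both *Il1r1* windows held no match. The STAT motif is its own reverse complement and was counted once per place. The *Il1rl1* window shown held the GATA motif on the minus strand from -103 to -98, and the other *Il1rl1* start had a GATA match from -217 to -212. The remaining window with matches belonged to *Il1rn*, with an AP-1 motif. Of 32851 mouse promoter windows of this length, 8.30% held the STAT motif, 11.2% the GATA motif, 7.81% the AP-1 motif and 1.28% the T-box motif. None of the 14 windows held the T-box motif. A match describes the letters only.

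**Figure D1:**
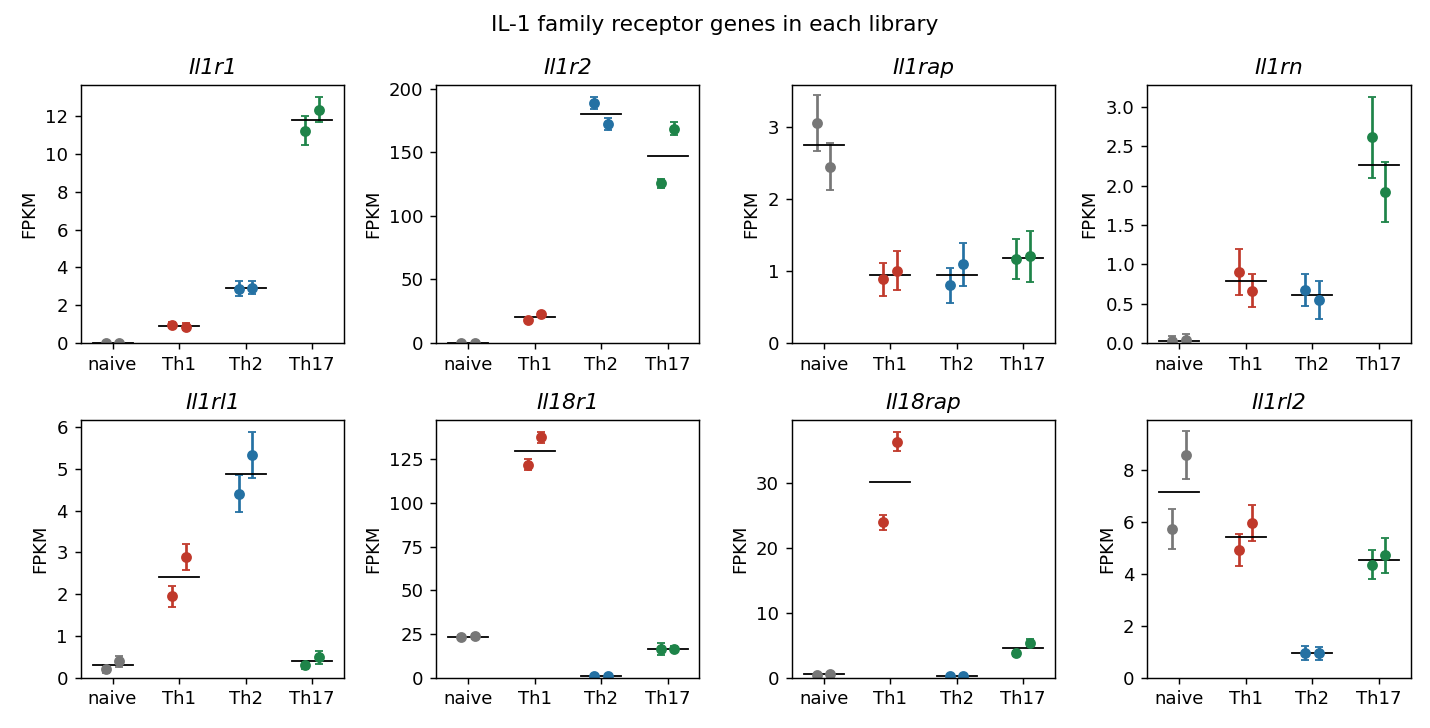
FPKM of each gene (y axis, linear, own scale per panel) in the 2 libraries of each group (x axis), with the interval given in the files as error bars and the group mean as a black line. *Il18r1* and *Il18rap* peaked in Th1, *Il1rl1* in Th2 and *Il1r1* in Th17, while *Il1rap* was highest in naive cells.

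IL-1 receptors were nearly silent in naive cells and were present in all effector subsets, with the signaling chain highest in Th17. *Il1r1*, the receptor that transmits the IL-1 signal, was listed at 0 and 0.00968 FPKM in naive cells, 0.960 and 0.867 in Th1, 11.2 and 12.3 in Th17, and 2.87 and 2.93 in Th2. No groups overlapped, and the order from naive through Th1 and Th2 to Th17 held in every library. On the log2(FPKM + 1) scale, on which differences of low genes are understated, *Il1r1* was higher than in naive cells by 0.93 ± 0.10 (SE) in Th1 (limma, Benjamini-Hochberg adjusted p = 0.000151), by 1.96 in Th2 (adjusted p = 3.35e-06) and by 3.67 in Th17 (adjusted p = 2.94e-07). Between the subsets, Th17 exceeded Th2 by 1.71 (adjusted p = 4.58e-05), and the Th1 level was below that of Th2 by a difference of -1.03 (adjusted p = 0.000258).

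The decoy *Il1r2* reached far higher levels than *Il1r1*. It was listed at 0 and 0.115 FPKM in naive cells, 18.3 and 22.9 in Th1, 125 and 169 in Th17, and 189 and 172 in Th2. Th2 and Th17 libraries were both well above Th1, and the lower Th2 library, at 172, was close to the higher Th17 library, at 169. The difference from naive was 4.35 ± 0.17 in Th1 (adjusted p = 1.4e-06), 7.42 in Th2 (adjusted p = 1.8e-07) and 7.12 in Th17 (adjusted p = 2.4e-07). Th1 differed from Th2 by -3.08 (adjusted p = 2.48e-05) and from Th17 by -2.77 (adjusted p = 7.06e-05), whereas Th17 and Th2 differed by -0.31 ± 0.17, which did not pass (adjusted p = 0.184).

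**Figure D2:**
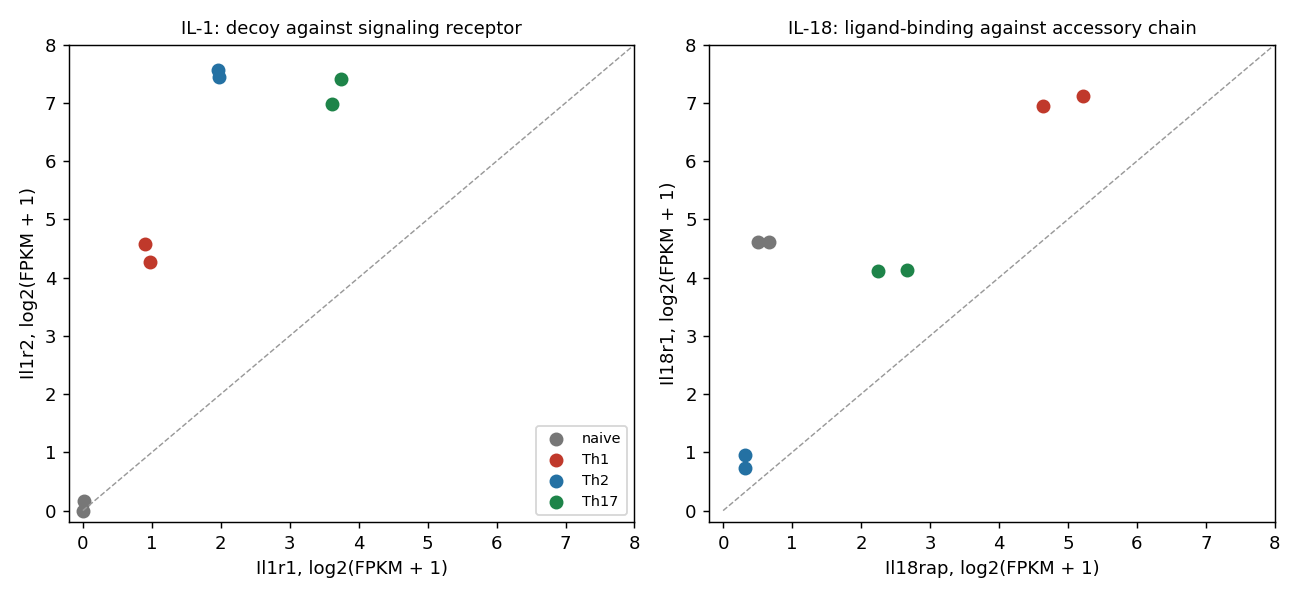
Left, *Il1r2* (y axis) against *Il1r1* (x axis); right, *Il18r1* against *Il18rap*; each in log2(FPKM + 1), 1 point per library, with equal levels on the dashed line. All effector libraries lie above the line on the left, and Th2 and Th17 lie apart along the *Il1r1* axis.

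Set against the signaling receptor, the decoy was in excess in every effector library. The ratio of *Il1r2* to *Il1r1* FPKM was 19.1 and 26.4 in Th1, 11.2 and 13.7 in Th17, and 65.7 and 58.8 in Th2. The 3 subsets did not overlap, with Th2 highest and Th17 lowest. No ratio is given for naive cells, in which both genes were at or near 0, and 2 libraries per group allow no exact test of a ratio below 0.05.

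*Il1rap*, the accessory chain shared by the IL-1, IL-33 and IL-36 receptors, went the other way. Its FPKM was 3.05 and 2.45 in naive cells, 0.886 and 1.00 in Th1, 1.17 and 1.20 in Th17, and 0.800 and 1.09 in Th2. Both naive libraries were above every effector library, and the effector subsets were close together. The CD8 T cell markers *Cd8a* and *Cd8b1* moved the same way, with a sum of 54.5 to 93.4 FPKM in naive cells and 8.94 to 13.0 in the effector libraries, and their part in the *Il1rap* values was not tested. *Il1rap* fell by 0.94 in Th1 (adjusted p = 0.000608), by 0.95 in Th2 (adjusted p = 0.000535) and by 0.77 in Th17 (adjusted p = 0.00157), with an SE of 0.13. No comparison between subsets passed (adjusted p = 0.99 for Th1 against Th2, 0.321 for Th17 against Th2 and 0.41 for Th1 against Th17). The ratio of *Il1r1* to *Il1rap* FPKM was 1.08 and 0.863 in Th1, 9.63 and 10.3 in Th17, and 3.59 and 2.68 in Th2. For *Il1rap*, GENCODE M21 lists a 360-residue product beside those of 570, 640 and 685 residues, which the gene-level FPKM does not separate.

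*Il1rn*, the antagonist, was listed at 0.0198 and 0.0398 FPKM in naive cells, 0.902 and 0.666 in Th1, 2.61 and 1.92 in Th17, and 0.676 and 0.542 in Th2. Th17 libraries were highest, naive libraries lowest, and Th1 and Th2 overlapped. With no filter on low values, the difference from naive was 0.79 in Th1 (adjusted p = 0.00845), 0.64 in Th2 (adjusted p = 0.0153) and 1.66 in Th17 (adjusted p = 0.000677). Macrophages also express this gene. Of 6 macrophage and monocyte markers, *Cd14* was 0.203 and 0.475 FPKM in naive cells, 2.54 and 2.96 in Th1, 4.41 and 3.75 in Th17, and 0.557 and 0.539 in Th2. *Itgam* was also highest in Th17, while *Lyz2* and *Emr1* were highest in Th2 and *Csf1r* and *Fcgr1* in naive cells. The summed list was 12.6 to 13.1 in naive cells, 7.95 to 8.75 in Th1, 20.8 to 27.8 in Th2 and 17.0 to 17.2 in Th17, with *Fcgr1* at 0 in Th2 and Th17. Their part in the *Il1rn* values was not tested.

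The IL-33 receptor chain *Il1rl1* was highest in Th2 and second in Th1. Its FPKM was 0.207 and 0.388 in naive cells, 1.95 and 2.90 in Th1, 0.295 and 0.488 in Th17, and 4.41 and 5.34 in Th2. Th2 was above Th1 in every library, and the naive and Th17 libraries overlapped. Against naive cells, *Il1rl1* was higher by 2.18 ± 0.17 in Th2 (adjusted p = 3.5e-05) and by 1.39 in Th1 (adjusted p = 0.000383), and the difference of 0.10 in Th17 did not pass (adjusted p = 0.631) and turned to -0.78 with quantile normalization (adjusted p = 0.00567). Th17 lay below Th2 by a difference of -2.08 (adjusted p = 0.000245). Th1 differed from Th2 by -0.79 (adjusted p = 0.0108), a call that was lost without Th1 replicate 1 (-0.59, adjusted p = 0.0515) or without Th2 replicate 2 (-0.67, adjusted p = 0.067). GENCODE M21 lists a 567-residue membrane form and a 337-residue short form of *Il1rl1*, and the gene-level FPKM does not separate them.

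IL-18 receptor RNA was highest in Th1 cells. *Il18r1*, the ligand-binding chain, stood at 23.4 and 23.6 FPKM in naive cells, 122 and 137 in Th1, 16.4 and 16.6 in Th17, and 0.666 and 0.935 in Th2. No groups overlapped, with Th1 on top and Th2 nearly devoid of the RNA. The difference from naive was 2.41 ± 0.11 in Th1 (adjusted p = 2.37e-06), -3.77 in Th2 (adjusted p = 3.39e-07) and -0.49 in Th17 (adjusted p = 0.00558). Th1 exceeded Th2 by 6.18 (adjusted p = 1.06e-06) and Th17 exceeded Th2 by 3.28 (adjusted p = 4.91e-06).

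*Il18rap*, the accessory chain of the same receptor, was 0.422 and 0.578 FPKM in naive cells, 24.0 and 36.4 in Th1, 3.73 and 5.33 in Th17, and 0.244 and 0.248 in Th2. It was low in naive cells, where *Il18r1* was not. *Il18rap* was higher than in naive cells by 4.35 ± 0.22 in Th1 (adjusted p = 4.15e-06) and by 1.87 in Th17 (adjusted p = 0.000235), while the difference of -0.27 in Th2 did not pass (adjusted p = 0.304). Th1 exceeded Th2 by 4.62 (adjusted p = 1.28e-05) and exceeded Th17 by 2.48 (adjusted p = 0.000306). The ratio of *Il18r1* to *Il18rap* was 55.5 and 40.8 in naive cells and 2.72 to 5.08 in the 6 effector libraries. NK cells also carry this receptor. The 2 NK markers summed to 0.175 to 0.318 FPKM in naive cells, 0.302 to 0.625 in Th1, 0.308 to 0.365 in Th17 and 0.0480 to 0.108 in Th2. Of these, *Ncr1* was listed at 0 in all effector libraries and *Klrb1c* was 0.625 and 0.302 in Th1, and their part in the IL-18 receptor values was not tested.

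*Il1rl2*, the IL-36 receptor chain, was lowest in Th2. Its FPKM was 5.72 and 8.57 in naive cells, 4.92 and 5.95 in Th1, 4.35 and 4.72 in Th17, and 0.956 and 0.932 in Th2. Both Th2 libraries were below all others, and naive and Th1 overlapped. *Il1rl2* differed from naive by -2.05 ± 0.17 in Th2 (adjusted p = 4.72e-05). The difference in Th17, -0.54, passed (adjusted p = 0.0295), but not with either Th17 library left out (adjusted p = 0.123 and 0.0775), without either Th2 library (0.0519 and 0.052) or without naive replicate 2 (0.125). In Th1 it was -0.32 and did not pass (adjusted p = 0.141). Th1 exceeded Th2 by 1.72 (adjusted p = 0.000349) and Th17 exceeded Th2 by 1.51 (adjusted p = 0.000869).

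**Figure D3:**
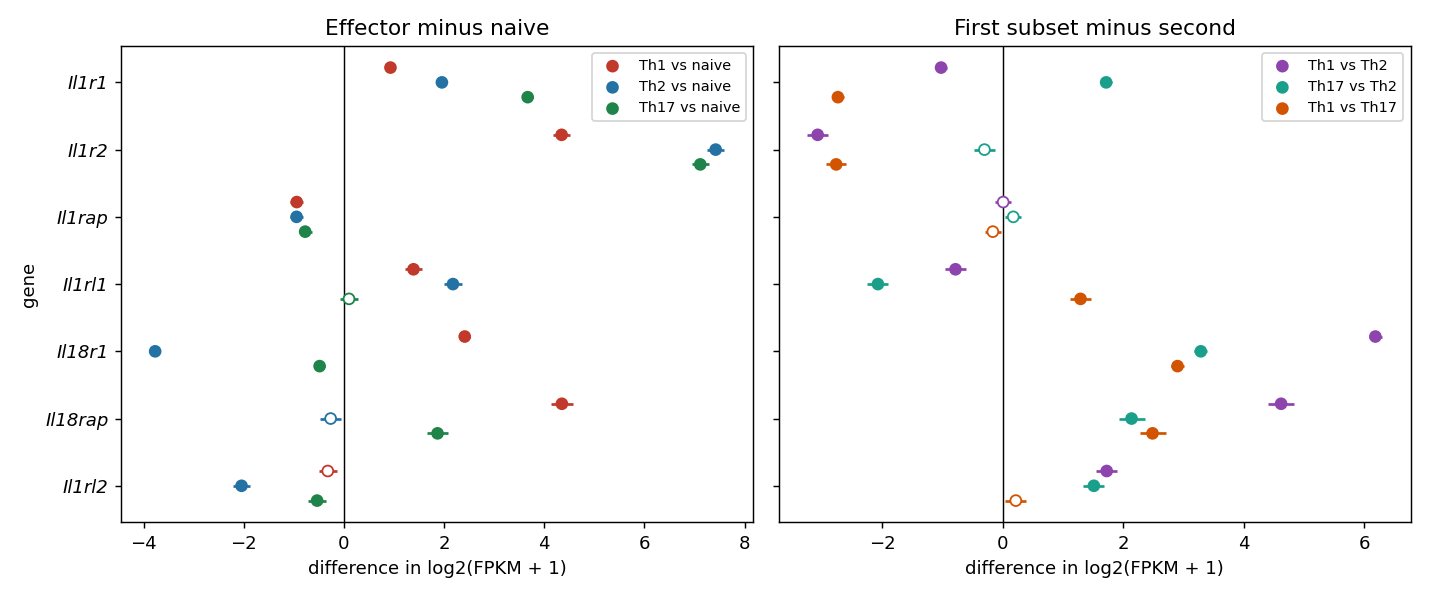
Difference in log2(FPKM + 1) (x axis) for the 7 genes tested (y axis), against naive cells on the left and between subsets on the right, with the SE as bars. Filled points passed an adjusted p of 0.05 and open points did not. *Il18r1* moved in opposite directions in Th1 and Th2.

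Counted over the 7 genes tested, 5 were higher and 1 lower in Th1 than in naive cells, against 33.8% and 33.5% of all 11198 genes tested. In Th2, 3 were higher and 3 lower (31.8% and 38.7% of all genes), and in Th17, 3 were higher and 3 lower (37.5% and 29.8%). Th1 against Th2 had 3 higher and 3 lower (27.4% and 16.9%), Th17 against Th2 had 4 higher and 1 lower (31.7% and 12.0%), and Th1 against Th17 had 3 higher and 2 lower (9.17% and 16.0%). Against naive cells, the 7 genes had a median difference of 1.39 for Th1, -0.27 for Th2 and 0.10 for Th17, beside -0.014, -0.11 and 0.077 over all genes tested. With only 7 genes, these shares are descriptions. The 3 comparisons with naive share the naive libraries.

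Summed over the 8 genes, FPKM was 32.8 and 35.7 in naive cells, 174 and 208 in Th1, 165 and 211 in Th17, and 199 and 184 in Th2. The totals of the 3 subsets overlapped, but the gene with the highest FPKM differed. *Il18r1* made up 71.3% and 66.0% of the sum in naive cells and 70.1% and 66.0% in Th1. *Il1r2* made up 94.7% and 93.5% in Th2 and 75.9% and 79.8% in Th17.

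**Figure D4:**
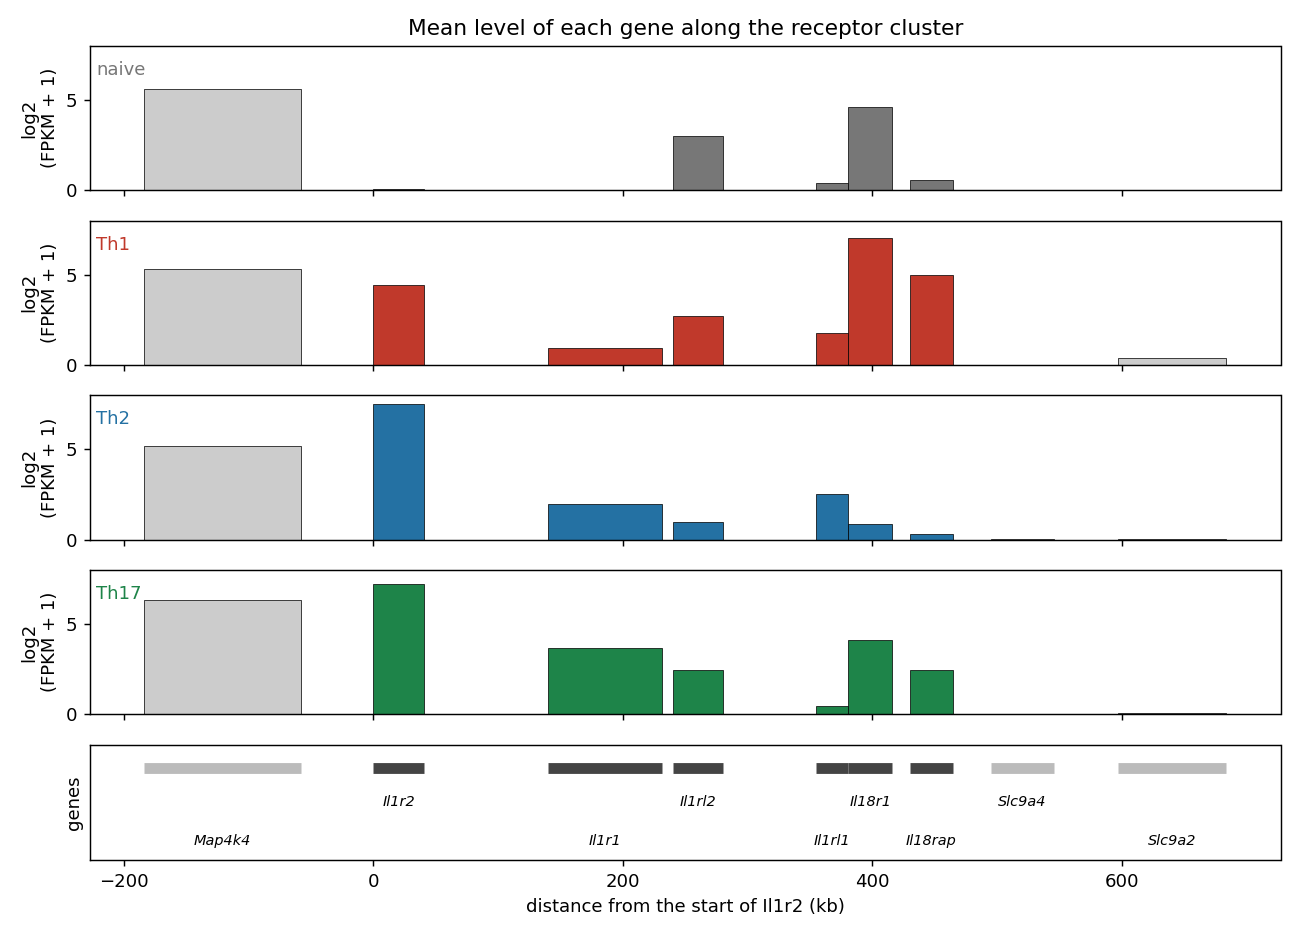
Mean level of each gene in log2(FPKM + 1) (y axis) along the chromosome 1 cluster (x axis, distance in kb from the start of *Il1r2*), 1 panel per group, with receptor genes colored and flanking genes gray. The left end of the cluster is highest in Th2 and Th17 and the right end in Th1.

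Outside the cluster, *Map4k4*, upstream of *Il1r2*, averaged 79.4 FPKM in Th17, 48.2 in naive cells, 39.2 in Th1 and 36.2 in Th2. *Slc9a4* and *Slc9a2*, downstream of *Il18rap*, stayed under 0.5 FPKM on average in every group. Over the 8 libraries, Pearson's r of log2(FPKM + 1) was 0.82 between *Il18r1* and *Il18rap*, 0.85 between *Il1r1* and *Il1r2*, and -0.39 between the adjacent *Il1rl1* and *Il18r1*. These correlations describe 8 libraries in 4 groups, which share the difference between naive and cultured cells. In GENCODE M21 an antisense gene, *Gm16894*, overlaps the start of *Il1r2*, and another, *Gm20319*, overlaps the end of *Il1rap*. Since the methods name a kit that does not keep the strand and the labels a stranded one, reads of such overlaps may not be separable.

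Among the ligands and soluble inhibitors of the family, 10 were in the files and 4 were tested. In Th1 against naive, limma called 0 of the 4, and 1 of them, *Il1b*, had an unadjusted p under 0.05 (0.0394). Against naive, 3 were lower in Th2 (38.7% of all genes tested), and in Th17 2 were higher and 1 lower (37.5% and 29.8% of all genes tested). *Il1b*, the ligand of *Il1r1*, was 10.2 and 9.96 FPKM in Th17, against 1.36 and 1.45 in naive cells, 1.10 and 0.700 in Th1, and 0.146 and 0.325 in Th2. It was higher in Th17 than in naive cells by 2.20 ± 0.14 (adjusted p = 1.01e-05). Myeloid cells also express *Il1b*. The 5 dendritic cell markers summed to 0.728 to 0.815 FPKM in naive cells, 1.22 to 1.36 in Th1, 3.88 to 3.90 in Th17 and 2.72 to 2.82 in Th2. Of these, *Flt3* and *Zbtb46* were highest in Th17. *Itgax* was highest in Th2, at 2.27 and 2.25 FPKM against 1.65 and 1.59 in Th17, and *Xcr1* was highest in Th1. *Siglech* was at 0 in all effector libraries. Of the macrophage and monocyte markers, *Cd14* and *Itgam* were also highest in Th17, *Lyz2* and *Emr1* in Th2, and *Csf1r* and *Fcgr1* in naive cells. The sum of that list was highest in Th2, at 20.8 to 27.8 FPKM, against 17.0 to 17.2 in Th17. The part of these cells in the *Il1b* values was not tested. *Il33* was 3.46 and 2.56 FPKM in Th17 and under 0.05 in every other library. It missed the filter and was not tested. *Il18bp*, a soluble trap for IL-18, was lower in Th2 than in naive cells by a difference of -1.73 ± 0.20 (adjusted p = 0.000217), at 1.39 FPKM in the higher Th2 library against 5.43 in the lower naive library.

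Of 25 genes in the signaling list, 23 were tested. Most act downstream of the receptors, but *Casp1* and *Traf3ip2* do not. *Casp1* counts among the higher genes in Th1 and Th17 below, and *Traf3ip2* among the lower genes in Th1 and Th2. In Th1 6 were higher and 12 lower than in naive cells, in Th2 4 were higher and 17 lower, and in Th17 5 were higher and 8 lower, with median differences of -0.37, -0.57 and -0.18. Over all genes tested, 33.8% were higher and 33.5% lower in Th1, 31.8% higher and 38.7% lower in Th2, and 37.5% higher and 29.8% lower in Th17. *Myd88*, the adaptor that all these receptors use, was 36.2 and 36.8 FPKM in naive cells, 60.8 and 63.2 in Th1, 34.8 and 37.1 in Th17, and 22.3 and 18.2 in Th2. It was higher in Th1 than in naive cells (0.75 ± 0.11, adjusted p = 0.00089) and lower in Th2 (-0.83, adjusted p = 0.000486). *Traf6*, the ubiquitin ligase downstream of the IRAK kinases, was instead highest in Th2, by 1.34 over naive (adjusted p = 1.21e-05). *Sigirr*, an inhibitory relative of the receptors, was higher than in naive cells in Th1 (0.62 ± 0.12, adjusted p = 0.00319), Th2 (1.20, adjusted p = 0.000103) and Th17 (1.21, adjusted p = 0.000106).

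Markers of other cells were read beside these results. Mast cells and basophils carry *Il1rl1*. Their 5 markers summed to 0.360 to 0.380 FPKM in naive cells, 2.30 to 3.76 in Th1, up to 2.06 in Th17 and 0.197 to 0.50 in Th2. *Fcer1a* was listed at 0 in every library, while *Kit* made up most of the sum in Th1, at 2.27 and 3.76, and in Th17, at 1.43 and 2.06.

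Neutrophils carry the decoy *Il1r2*. The 5 neutrophil markers summed to 0.173 to 1.21 FPKM in naive cells, 82.5 to 88.9 in Th1, 5.86 to 13.8 in Th17 and 10.3 to 15.7 in Th2. Most of this was *Cxcr2* in Th1, at 81.2 and 82.4. *S100a9* was at 0 in all effector libraries and *S100a8* was at most 0.663 there. *Mpo* was 4.89, 2.46 and 3.02 FPKM in replicate 1 of Th1, Th2 and Th17 and at most 0.106 in replicate 2, and *Elane* was 2.59, 3.71 and 3.60 in replicate 1 and 0 in replicate 2.

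B cell markers summed to 6.98 to 8.82 FPKM in naive cells, 2.33 to 3.22 in Th1, 11.3 to 12.2 in Th17 and 7.46 to 9.98 in Th2. *Foxp3*, of regulatory T cells, was 6.68 and 12.8 FPKM in naive cells, 0.874 and 1.13 in Th1, 3.03 and 5.76 in Th17, and 0.423 and 0.541 in Th2. *Ikzf2*, the other marker listed for these cells, was 1.53 and 2.55 FPKM in naive cells and 1.82 and 1.80 in Th1, so it did not fall there. It was 1.28 and 1.57 in Th17 and 0.149 and 0.346 in Th2. The part of these cells in the receptor values was not tested.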

How the data were processed

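RNA-seq libraries (8, in 4 groups) were grouped by their labels. The authors aligned 50-bp reads to mm10 with TopHat (version 1.3.2) and Bowtie (version 0.12.8) and computed FPKM per gene with Cufflinks (version 2.0.2), and they deposited FPKM with a confidence interval for each library. The gene annotation is not given in the sources used here. The library kit is unstranded according to the methods and stranded according to the labels.

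FPKM of rows with the same symbol were summed, giving 23284 genes, and log2(FPKM + 1) was fitted with limma (version 3.58.1, R 4.3.3) as 4 group means with a mean-variance trend, for the 11198 genes with a mean of at least 1 FPKM. Tests were two-sided, p-values were adjusted by Benjamini-Hochberg over all genes tested, and the threshold was 0.05. The model was tested on simulated data. Python 3.11.15 (pandas 2.3.3, numpy 2.4.6) was used for tables. Depth was estimated from the confidence intervals as the squared ratio of FPKM to its error. This is not an exact fragment count, and the intervals do not cover the spread between libraries. For *Il18r1* in Th17, 16.4 FPKM in replicate 1 implied 81.5 fragments, and 16.6 FPKM in replicate 2 implied 693. Promoter windows came from RefSeq and isoforms from GENCODE M21.

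The genes named are the 8 members, the family's ligands, relatives and signaling genes, lineage and cell type markers, the protein-coding neighbors of the cluster and the 3 genes most correlated with each member. These members and lists were chosen with earlier results of these data known. The alternatives were a pseudocount of 0.1, other filters, median scaling, quantile normalization, a fit of 2 groups, no trend, the replicate block, the largest row per symbol and each library left out. Some genes that this rule names are not reported here.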

Additional observations from a re-analysis of the deposited data

Results flagged for a closer look

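For 6 genes the change from naive cells differed between subsets by a test of the difference itself (limma, Benjamini-Hochberg adjusted), and the largest such difference of each is given on the log2(FPKM + 1) scale. *Il18r1* rose in Th1 and fell in Th2, so that Th1 exceeded Th2 by 6.18 (adjusted p = 1.06e-06). *Il18rap* differed by 4.62 between Th1 and Th2 (adjusted p = 1.28e-05). *Il1r1* differed by -2.74 between Th1 and Th17 (adjusted p = 8.22e-06), and *Il1r2* by -3.08 between Th1 and Th2 (adjusted p = 2.48e-05). *Il1rl1* differed by -2.08 between Th17 and Th2 (adjusted p = 0.000245), and *Il1rl2* by 1.72 between Th1 and Th2 (adjusted p = 0.000349). The libraries of the 2 subsets did not overlap in any of these cases. Each case was picked as the gene's largest difference that passed, so the lack of overlap adds no support. Over all genes tested, 27.4% were higher and 16.9% lower in Th1 than in Th2. The shares were 31.7% and 12.0% for Th17 against Th2, and 9.17% and 16.0% for Th1 against Th17. A gene could enter by any of these comparisons. The share of all genes that passed in any of them is not given, so the count of 6 is a description.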

How the results depend on the processing

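With a stricter filter, a mean of at least 5 FPKM, only *Il18r1*, *Il18rap* and *Il1r2* of the members were tested. Those that passed numbered 3 in Th1, 2 in Th2 and 3 in Th17 against naive, 3 in Th1 against Th2, 2 in Th17 against Th2 and 3 in Th1 against Th17. The share of all genes that passed under this filter is not given, so these counts are descriptions. *Il1rl1* in Th17 against naive turned from 0.10 to -0.78 with quantile normalization (adjusted p = 0.00567), and the cause was not tested. *Il18rap* in Th2 against naive passed with a pseudocount of 0.1 (-0.78, adjusted p = 0.0331), with quantile normalization (-0.88, adjusted p = 0.00711) and in a fit of the 2 groups (adjusted p = 0.0333). *Il1rl2* in Th17 against naive was lost with no filter (adjusted p = 0.0946) and in a fit of the 2 groups (adjusted p = 0.0767), and *Il1rl2* in Th1 against naive passed without naive replicate 1 (-0.58, adjusted p = 0.0128). *Il1r2* in Th17 against Th2 passed with median scaling (-0.49, adjusted p = 0.043). *Il1rap* between subsets, never past the threshold, changed sign. Th1 against Th2 went from 0.0035 to -0.044 with median scaling, -0.027 with quantile normalization, -0.041 without Th1 replicate 2 and -0.10 without Th2 replicate 1 (0.11 at most with 1 library left out), and with quantile normalization Th17 against Th2 went to -0.091 and Th1 against Th17 to 0.065. Of 336 values with 1 library left out, 326 kept their direction and side of the threshold, as did 343 of 354 under the other settings. Both tallies overstate stability. Leaving out a library in neither group compared could not move the difference, only its p-value. The other filters, the fit of 2 groups, no trend and the replicate block also left each difference unchanged by construction. With the replicate block, the number of the 7 genes that passed stayed at 6 in each comparison with naive, and the block changed no gene's call. Replicate numbers were treated as a shared number only, and the differences between replicates 1 and 2 correlated at 0.138 to 0.294 between groups. Scaling moved the median of all genes by up to -0.19 (Th17 against naive, quantile normalization), and the share of calls that were higher in Th17 than Th2 from 72.6% to 53.3% with median scaling and 50.7% with quantile normalization. For Th1 against Th17 it went from 36.5% to 48.1% and 49.7%, and with quantile normalization from 61.8% to 50.9% for Th1 against Th2 and from 55.7% to 44.2% for Th17 against naive. Genes under 1 FPKM, such as *Il1rn* in Th1 and Th2, rest on few fragments.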

Other observations

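The genes whose levels most resembled 6 of the receptor genes over the 8 libraries were ranked by Pearson's r of log2(FPKM + 1), as a description of 8 libraries in 4 groups. *Il1r2* was most like *Tgm2* (r = 0.998), *Il1rl1* like *Rrbp1* (r = 0.993) and *Il1rl2* like *Dgcr8* (r = 0.993). *Il18rap* was most like *Coro6* (r = 0.997), at 16.7 and 22.8 FPKM in Th1 and at most 3.56 elsewhere. *Il18r1* was most like *Fam102b* (r = 0.984), followed by *Myd88* (r = 0.983). *Il1rap* was most like *Tpm1* (r = 0.993).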
